A study of Mus musculus with 8 samples.

Results

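The 725 mouse genes described here each had a gene-body interval with very little H3K27me3 in embryonic stem cells, out of 13796 genes on chromosomes 1 to 10 that could be ranked. Other autosomes were not analysed here. They were selected on the measured H3K27me3 signal itself. The density of an interval was its read count divided by its length in kb and by the library's column total, and expressed per 1000000 counts. It was averaged over the 4 H3K27me3 libraries. An autosomal interval of at least 5000 bp and under 300 kb was kept when its density was 0.25 times the median of all 50398 intervals or less, which put the limit at 0.0806 against a median of 0.322. Of 38303 autosomal intervals in that length range, 1828 met the limit, and 1 interval per gene, the best overlap with a RefSeq gene, left 725 genes, or 5.26% of the rankable genes. For 92 of the 725 another interval of the gene overlapped it better and lay above the limit, at up to 0.803 times the median, and taking the best overlap first left 633. Because the density chose these genes, every density below is a description without a test, and only the comparisons between times and between clones were tested.

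All cells were E14tg2a mouse embryonic stem cells (strain background 129SV) that stably express cRAF-ErT2, a kinase fused to a tamoxifen-responsive oestrogen receptor domain. 2 clones of this line, A and B, were used, and every group carried the transgene. Cultures grew in serum medium that held LIF plus the GSK3 inhibitor Chir99021 (2 µM). They were then held for 24 h in serum medium plus LIF and PD173074 (250 nM), which blocks FGF receptors. Cells were then taken untreated (0 h) or after 2 h with 250 nM 4OHT (4-hydroxytamoxifen), which switches the fusion kinase on and so activates ERK signalling. Each time has 1 library of each clone (n = 2), so p-values measure only the spread between these libraries of a single line. Chromatin was fixed with 1% formaldehyde for 10 min, and input libraries were not analysed here.

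H3K27me3, trimethylation of lysine 27 on histone H3, is laid down by Polycomb repressive complex 2 and is known for covering the CpG-rich promoters of silent developmental genes in embryonic stem cells. In these cells a broad low level also lies over much of the silent genome. Genes that are transcribed in nearly every cell, from CpG island promoters, are known for carrying little of the mark, since transcription and the marks of active chromatin oppose it. A ChIP-seq count can also be low for a reason that is not chromatin, because a read from a sequence with near-identical copies cannot be placed uniquely.

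The genes with the lowest density formed 2 kinds that differ in their promoters, and 5 promoters show both. Promoter sequences (250 bases before to 50 after the annotated start) are from RefSeq, build GRCm38.p6, and 557 of the 725 genes had one. The promoters of Mtor (chr4:148448332-148448631, plus strand), the growth-controlling kinase of nutrient signalling, and of Dnajc13 (chr9:104262881-104263180, minus strand), a co-chaperone of endosomal sorting, are shown because these genes had the most counts. CG dinucleotides are in capitals, 21 in Mtor and 44 in Dnajc13, and the same marking gives 1 in Skint3 (chr4:112231995-112232294, plus strand), the protein-coding gene of lowest density and a member of a skin and thymus immunoglobulin family.
Mtor: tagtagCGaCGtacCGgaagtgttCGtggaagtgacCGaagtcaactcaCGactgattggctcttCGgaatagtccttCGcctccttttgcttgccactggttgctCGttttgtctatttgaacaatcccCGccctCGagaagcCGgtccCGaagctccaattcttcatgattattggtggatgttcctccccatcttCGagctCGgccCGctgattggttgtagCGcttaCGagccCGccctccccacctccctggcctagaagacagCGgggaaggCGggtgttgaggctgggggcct
Dnajc13: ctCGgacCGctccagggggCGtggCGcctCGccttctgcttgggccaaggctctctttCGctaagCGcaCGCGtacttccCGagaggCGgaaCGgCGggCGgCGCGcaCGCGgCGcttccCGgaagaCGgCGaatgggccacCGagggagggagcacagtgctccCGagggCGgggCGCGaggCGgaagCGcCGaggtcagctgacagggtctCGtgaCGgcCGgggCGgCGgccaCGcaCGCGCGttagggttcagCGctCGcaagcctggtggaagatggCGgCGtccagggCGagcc
Skint3: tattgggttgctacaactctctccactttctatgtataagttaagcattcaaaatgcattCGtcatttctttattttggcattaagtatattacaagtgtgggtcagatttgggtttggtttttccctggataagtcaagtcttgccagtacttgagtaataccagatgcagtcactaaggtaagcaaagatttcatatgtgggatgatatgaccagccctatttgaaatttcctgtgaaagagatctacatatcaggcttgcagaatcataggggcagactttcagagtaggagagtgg
The promoter of Vmn2r35 (chr7:7819818-7820117, minus strand), a vomeronasal pheromone receptor of very low density, is shown beside that of Vmn2r30 (chr7:7337444-7337743, minus strand), the promoter with which it shares most. Capitals here mark the 174 bases that the pair have in common without a mismatch.
Vmn2r35: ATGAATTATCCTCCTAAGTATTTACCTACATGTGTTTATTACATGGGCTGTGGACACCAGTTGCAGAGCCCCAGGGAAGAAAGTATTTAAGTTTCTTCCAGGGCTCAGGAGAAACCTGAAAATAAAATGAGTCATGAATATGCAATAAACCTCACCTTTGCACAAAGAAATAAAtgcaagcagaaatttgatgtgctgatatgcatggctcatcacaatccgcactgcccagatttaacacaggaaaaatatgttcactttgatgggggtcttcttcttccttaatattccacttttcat
Vmn2r30: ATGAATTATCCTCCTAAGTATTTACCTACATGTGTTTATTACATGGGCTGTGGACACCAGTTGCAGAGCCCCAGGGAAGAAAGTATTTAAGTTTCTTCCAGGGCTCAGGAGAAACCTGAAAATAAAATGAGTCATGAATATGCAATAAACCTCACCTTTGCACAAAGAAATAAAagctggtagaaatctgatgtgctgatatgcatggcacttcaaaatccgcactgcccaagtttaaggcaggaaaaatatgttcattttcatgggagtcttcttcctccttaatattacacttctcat

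Densities over the 13796 rankable genes fell into 2 humps, and the limit of 0.25 cut the left flank of the lower one. The selected genes ran from 0.00376 times the median (Gm21104) to 0.25, with a median of 0.232. Most lay close to the limit: 578 of the 725 were between 0.2 and 0.25 times the median, 43 between 0.15 and 0.2, and 104 below 0.15. The next band, over 0.25 to 0.5 times the median, held 3089 genes. The 3 genes just inside the limit were Cwc15, Ythdc1 and Aars at densities of 0.0806, and the 3 just outside were Ints14 (0.0806), Suds3 (0.0807) and Lap3 (0.0807), so genes on either side of the limit differed by less than their counting error. The 104 genes below 0.15 form a long thin tail, and that value was set after seeing the data, to describe the tail apart from the other 621.

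**Figure D1:**
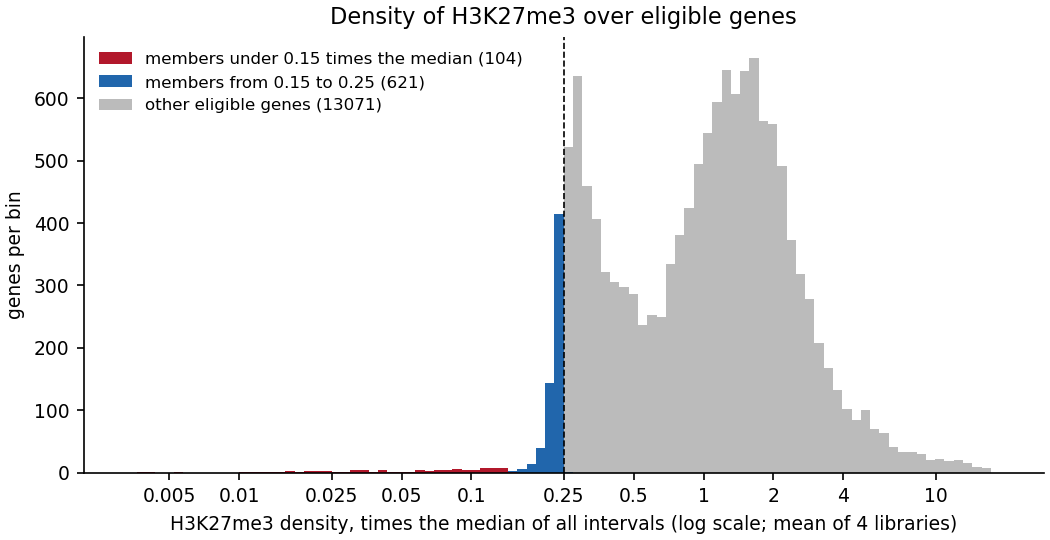
Number of rankable genes per bin of H3K27me3 density, in units of the median of all intervals on a log scale (mean of 4 libraries); red and blue are the 725 selected genes and the dashed line is the limit at 0.25. The blue genes form the left flank of the lower hump and the 104 red genes a thin tail below it.

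The 621 genes from 0.15 to 0.25 were nearly all named protein-coding genes, and they included many of general cell function. Of the 621, 95.3% were protein coding, against 68.6% of all rankable genes, and 6.44% had only a predicted or clone name, against 32.4%. The unselected next band was much the same, at 92.1% and 8.71%. Its part from 0.25 to 0.3 had 96.2% and 4.19%. Their intervals had a median length of 18.5 kb, and a median mean count of 114. In the gene lists, 10 of 28 DNA replication genes were selected (35.7%), among them Orc5, Orc4 and Orc1 of the origin recognition complex, Pole, the catalytic subunit of DNA polymerase epsilon, and Mcm2, Mcm3 and Mcm6 of the replicative helicase. The aminoacyl-tRNA synthetases, which charge tRNAs, gave 8 of 21, the translation factors 10 of 32, and RNA polymerase, Mediator and general transcription factor genes 13 of 45. Oxidative phosphorylation gave 10 of 40, mitochondrial ribosomal proteins 7 of 34, nuclear pore genes 7 of 26, proteasome subunits 4 of 19, spliceosome and hnRNP genes 8 of 45, and vesicle transport 20 of 125. Shares were smaller for chaperones (12.1%), DNA repair (11.8%), active-chromatin remodellers and methyltransferases (11.1%), cohesin and condensin (9.09%) and the ubiquitin pathway (8.33%). List counts are of all 725 selected genes, and 1 gene of the translation list (Eif2ak1) and 1 chaperone (Cct6a) lay below 0.15. The translation list went by symbol and took in Eif2ak1, a kinase, and Eif4ebp2, an eIF4E-binding protein. Of all rankable genes 5.26% were selected. The list shares describe the selection and carry no test, and the lists were drawn up with earlier results of these data known.

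Unselected genes of several lists were also low. The median density was 0.266 times the median for DNA replication genes, 0.268 for oxidative phosphorylation, 0.271 for proteasome subunits and 0.292 for both mitochondrial ribosomal proteins and translation factors. All 19 proteasome genes and 26 of 28 replication genes lay at or below 0.5. Other lists reached far higher, as 25 of 32 translation factors and 76 of 125 vesicle transport genes lay at or below 0.5 and their highest genes stood at 5.75 and 5.3. All 6 cytosolic ribosomal protein genes of eligible length, for example, were unselected at 0.273 to 0.353.

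**Figure D2:**
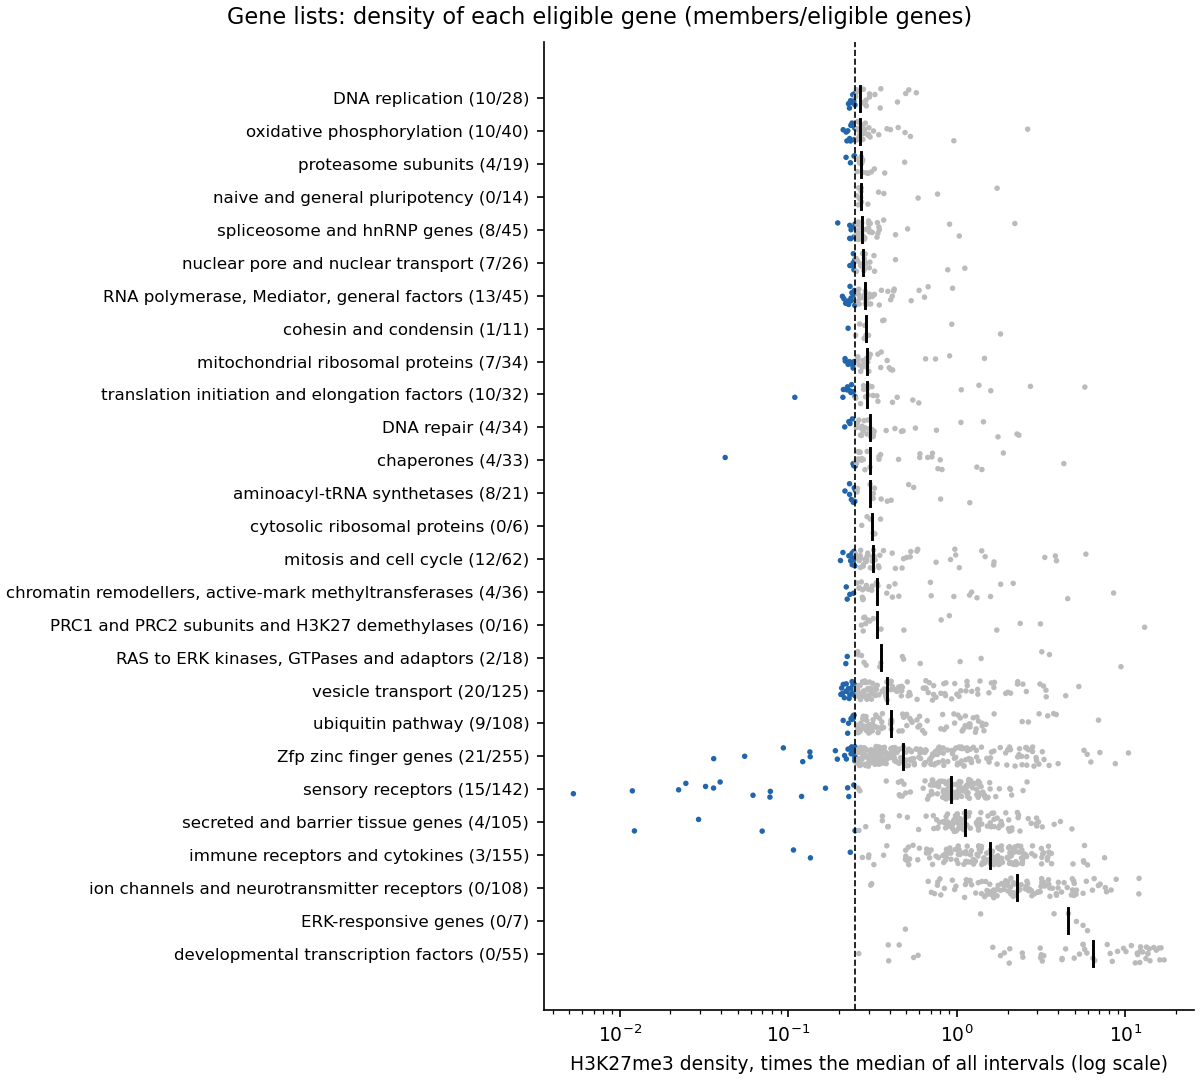
H3K27me3 density of every rankable gene of the lists, in units of the median of all intervals on a log scale; each point is a gene, blue if selected, black bars are list medians and the dashed line is the limit at 0.25. Lists of general cell functions have medians from 0.266 to 0.409. The sensory receptor list has a median of 0.928 and a separate tail far below the limit, and its selected genes are all Vmn2r vomeronasal receptors.

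The most precise values were those of long genes. Mtor (chromosome 4, 148448582 to 148557685) held 578 counts in clone A and 664 in clone B at 0 h, and 804 and 858 at 2 h. Its density was 0.0751 ± 0.000282 (SD, n = 2) at 0 h and 0.086 ± 0.00905 at 2 h. The values at 2 h lay above those at 0 h in both clones. Dnajc13 (chromosome 9, 104151597 to 104263172) had counts of 597 and 690 before and 796 and 791 after 4OHT, a density of 0.0761 ± 4.08e-05 and 0.0802 ± 0.00441. Phf20, a reader protein of a histone acetyltransferase complex, Mdn1, an ATPase of ribosome assembly, and Hspg2, the basement membrane proteoglycan perlecan, were the others of the 5 with the highest counts. They lay at 0.234, 0.222 and 0.24 times the median. All 5 lay inside the lower hump.

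Genes of the pathway that the treatment drives ranged widely, with a median of 0.354. Of 18 RAS to ERK genes, Rps6ka1, a kinase activated by ERK (0.22 times the median), and Map2k2, the ERK kinase MEK2 (0.224), were selected. Rps6ka1 had counts of 207 and 203 before and 291 and 246 after 4OHT. Map2k2 held 96 and 111 at 0 h and 107 and 131 at 2 h. Counts are not scaled to the column totals, which were larger at 2 h in both clones. As densities, Rps6ka1 had 0.0671 ± 0.00775 (SD, n = 2) at 0 h and 0.0745 ± 0.00442 at 2 h. Map2k2 had 0.0727 ± 5.99e-05 and 0.0718 ± 0.0144, lower at 2 h in clone A and higher in clone B. Mapk3 (0.258) and Map2k1 (0.261) lay just above the limit. At the other end Gab2, an adaptor, stood at 3.55 and the FGF receptors Fgfr2 and Fgfr3 at 3.19 and 9.42, and 12 of the 18 lay at or below 0.5. Of 14 pluripotency genes none was selected, although Tfcp2l1 (0.255), Rif1 (0.26), Tet1 (0.265) and Zfp42 (0.269) came close, and Nanog (0.769) and Prdm14 (1.73) stood highest. Of 16 PRC1, PRC2 and H3K27 demethylase genes none was selected, with Rbbp4 at 0.272, Eed at 0.284 and Ezh2 at 0.288 near the low end and Phf19 at 3.14 and Bmi1 at 13 at the high end. None of the 55 developmental transcription factors, whose median was 6.43, of 108 ion channel and neurotransmitter receptor genes (median 2.28), or of 7 ERK-responsive genes (median 4.59) was selected. The share over all rankable genes was 5.26%. Lists of 7 to 18 genes are too short to set their counts of selected genes apart from it.

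The 104 genes of the tail were of another sort. Protein-coding genes made up 71.2%, 21 were lncRNAs and 9 were pseudogenes, and 47.1% had only a predicted or clone name. By symbol they included 11 Vmn2r vomeronasal receptors, 7 Pramel genes (a family expressed in the germ line and early embryo), 6 Zfp zinc finger genes and 3 Skint genes. There were also pairs from the families of Amy2a pancreatic amylases, Pira leukocyte receptors and Mrgpra sensory neuron receptors. Further pairs came from the families of Klr natural killer cell receptors, Sprr cornified envelope genes and Mup urinary proteins. Of these, Klra14-ps, Mup-ps10 and Mup-ps15 carry pseudogene symbols. These families were read off the tail after its values were seen. Of the larger families only some genes were selected, 15 of 84 rankable Vmn2r genes, 8 of 27 Pramel genes and 3 of 9 Skint genes, whereas both rankable genes of Amy2a, of Pira and of Sprr were. Klr gave 2 of 30, Mrgpra 2 of 5, Mup 3 of 7 and Zfp 20 of 215. Among the lists, immune receptors and cytokines gave 3 of 155 (1.94%) and secreted and barrier tissue genes 4 of 105 (3.81%). Both are below the 5.26% of all rankable genes.

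The tail had a median mean count of 24.5 per gene, with a range of 5.25 to 511, and its lowest genes were close to 0. Skint3 (chromosome 4, 112232245 to 112300468) held 3 counts in clone A and 10 in clone B at 0 h, and 12 and 7 at 2 h, where an interval of its 68.2 kb at the median density would hold 1864. Vmn2r21 had counts of 5 and 6 before and 6 and 6 after 4OHT, against 1082. Trim5, of a family of antiviral RING proteins, held 9 and 5 at 0 h and 5 and 9 at 2 h. Vmn2r35 held 8 and 17 at 0 h and 6 and 11 at 2 h, and Cyp2b13, a cytochrome P450 of the liver, 9 and 11 at 0 h and 10 and 15 at 2 h. All 4 libraries were low at each of these 5 genes. The nearest relatives of Skint3 within 100 kb, Skint4 and Skint9, were in the tail as well, at 0.0164 and 0.0167 times the median. Relatives farther off were higher, with Skint1 and Skint2 at 0.937 and 0.705, and so were Cyp2b9 at 0.51 and Vmn2r30 at 0.708, all 4 picked out after their values were seen. Input counts, which would show how many reads these intervals can yield, were not analysed here, so little H3K27me3 and few countable reads cannot be told apart.

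Both kinds held genes unlike the rest. Cct6a, a subunit of the TRiC chaperonin that folds actin and tubulin, lay in the tail at 0.0423 with counts of 59 and 61 before and 64 and 80 after 4OHT, and with 30 CpG in its promoter. Eif2ak1, the haem-regulated kinase of translation control, lay there at 0.109 with counts of 187 and 240 before and 248 and 314 after 4OHT. As densities, Cct6a had 0.0134 ± 0.00105 (SD, n = 2) at 0 h and 0.0138 ± 0.00298 at 2 h. Eif2ak1 had 0.033 ± 0.00246 and 0.0375 ± 0.00842. At the other end, 4 Vmn2r genes sat above 0.15, among them Vmn2r22 (0.229), Vmn2r62 (0.245) and Vmn2r48 (0.225). Cct6a, Eif2ak1 and these receptors were picked out after their values were seen. The gene counted under secreted tissue genes as Csnk2a1 is a casein kinase subunit, caught by its symbol only, and it lay at 0.249.

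Promoter composition, which the selection did not use, split along the same line. In the tail the 79 promoters with a sequence held a median of 2 CpG per 300 bases, and in the 621 other genes 478 promoters held 22. The next band held 22 and all 9765 rankable promoters 12. At least 15 CpG were present in 3 of 79 tail promoters (3.8%) and in 379 of 478 others (79.3%), against 77.3% of the next band and 44.6% of all. The split was not sharp, as the 30 promoters from 0.15 to 0.2 held a median of 17.5 CpG, and 60% of them had at least 15. Skint3, Vmn2r35 and Trim5 each had 1 CpG, and Cyp2b13 had 2, while Mdn1 and Hspg2 had 27 each and Phf20 had 24.

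Copied sequence followed the tail. A promoter was counted as copied if any run of 36 bases in it recurred in the promoter of another gene that does not overlap it. This held for 67 of 79 tail promoters (84.8%), for 23 of 478 in the other selected genes (4.81%), for 3.12% of the next band and for 6.35% of all. From 0.15 to 0.2 times the median the share was 23.3%. At least 50% of the runs were copied in 56 of the 79 tail promoters. The relation was not one to one, as of the 194 rankable genes with at least 50% copied 68 were selected (35.1%), their median density was 0.485 and 24.2% of them lay above the median of all intervals. Vmn2r30 is such a case: it shares the capitals shown above with Vmn2r35 and stood at 0.708 times the median against 0.0119. In the other direction, the promoter of Skint3, the protein-coding gene of lowest density, had no copied run. How reads matching several places were handled is not given in the sources used here, and its part in the low counts was not tested.

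Motifs were counted on either strand of the same 300 bases. The ETS motif CCGGAAG, of the factor family that GABPA and ELK proteins belong to, was present in 156 of 478 promoters of the 621 genes (32.6%), and in 6 of 79 in the tail (7.59%). It was in 23.1% of the next band and in 11.2% of all rankable promoters. Its share was lower at higher density, from 32.4% between 0.2 and 0.25 to 26.2% between 0.25 and 0.3, 21.1% between 0.3 and 0.5, 9.23% between 0.5 and 1 and 4.79% between 1 and 2. Mtor and Dnajc13 both held it. The GC box GGGCGG was in 64.9% of the 621 genes' promoters and 44.2% of all, the NRF1 motif CGCATGCG in 6.07% and 2.5%, and the palindrome TCGCGA in 9% and 3.29%. The TATA box TATAAA went the other way, at 6.9% against 11.4%. The CCAAT box was in 41% against 37.4%, and the YY1 core GATGGC in 18.4% against 14.4%. The unselected next band had shares nearer to those of the 621 genes than to those of all. They were 66.4% for the GC box, 5.45% for NRF1, 6.55% for TCGCGA and 6.8% for the TATA box. The CCAAT box was in 39.3% and the YY1 core in 17.1%. None of these 7 motifs contains another, those with a CG are more likely in CpG-rich promoters, and a match is a description of letters, not a bound site.

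**Figure D3:**
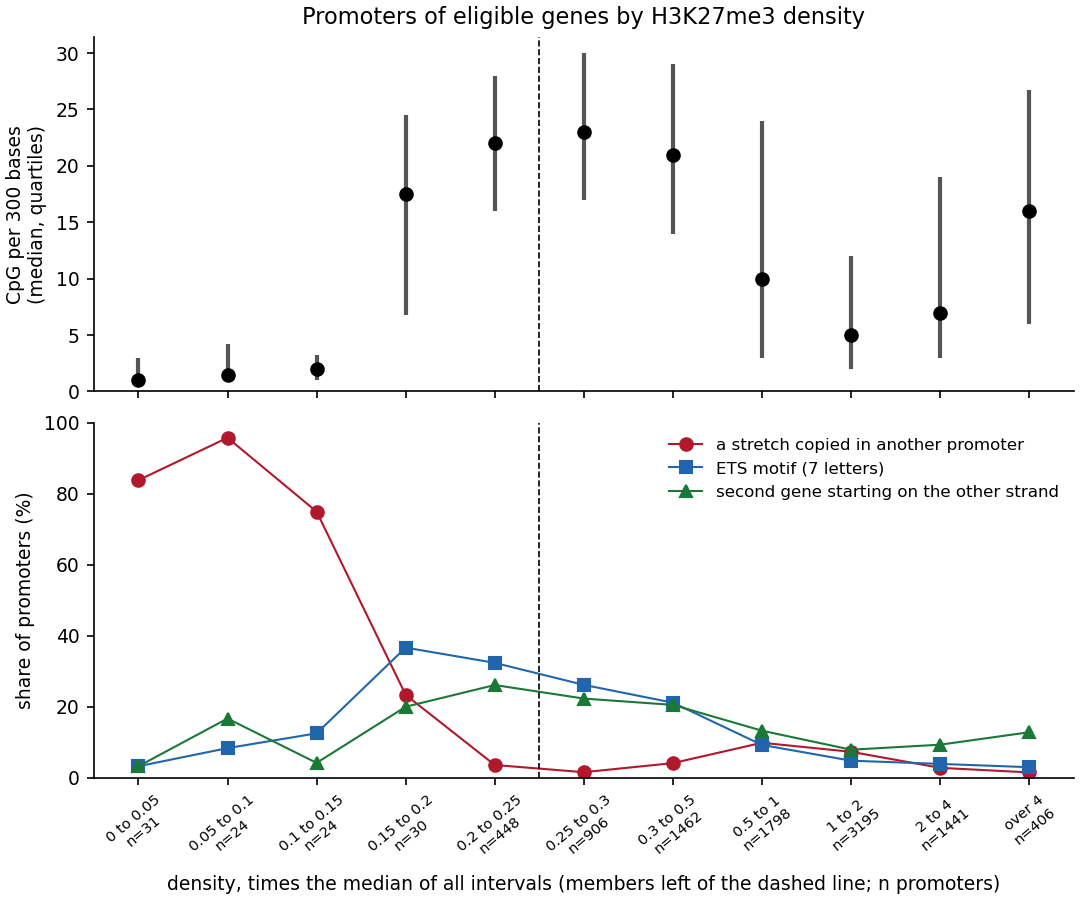
Promoters of 9765 rankable genes in bands of H3K27me3 density (units of the median of all intervals); the upper panel gives the median CpG count per 300 bases with quartiles, the lower panel the share with a copied run of 36 bases, with the ETS motif and with another gene starting on the opposite strand. Bands below 0.15 have 1 to 2 CpG and mostly copied promoters (95.8% from 0.05 to 0.1), whereas the bands from 0.2 to 0.3 have the most CpG.

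The genes also lay near each other. Within 100 kb of another selected gene were 323 of the 725 (44.6%), 39.6% of the 621 and 74% of the tail, against 20% of all rankable genes and 27.5% of the next band. Another gene starting on the opposite strand was found for 25.7% of the 478 promoters of the 621 genes, for 21.2% of promoters in the next band and for 1307 of all 9765 (13.4%). The largest runs were of both kinds. On chromosome 5 (93794624 to 94538367) 8 selected genes, with Pramel35, Pramel38, Pramel40, Pramel41 and Pramel42 among them, had no unselected rankable gene between them, and 7 of them lay below 0.15. On chromosome 8 (69908656 to 70312990) Gatad2a, Mau2, Rfxank, Borcs8, Sugp2 and Cope lay at 0.205 to 0.249 among 11 unselected genes. On chromosome 7 (3620324 to 3898159) the kinds met, where Tfpt, Prpf31 and Cnot3 were followed by Pira1 and Pira2. Among the 10 autosomes with rankable genes, chromosome 7 had the highest share (129 of 1675, 7.7%) and chromosome 1 the lowest (41 of 1507, 2.72%). Overlapping intervals share reads, and 50 of the 725 overlapped another selected interval.

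The libraries were not equally low. The 4 column totals ran from 70378127 to 92518605, and as intervals overlap, a total is not a depth. A selected gene held a median of 87 to 113 counts per library, which limits single values to a counting error of about 9.9% (reads carry no molecular identifiers, so this covers counting only). At 0 h the 725 genes had a median density of 0.0726 (clone A) and 0.0697 (clone B), and at 2 h of 0.0708 (clone A) and 0.0807 (clone B). Clone B at 2 h stood above the other 3. The next band had the same step, at 0.356 times the library median in clone B at 2 h against 0.312 to 0.324 in the others. In that library 351 of the 725 (48.4%) were at or under 0.25 times its own median, against 591 to 650 in the other libraries, and 247 were so in all 4. No selected gene exceeded 0.5 in any library. The 104 tail genes did not share this shift, with medians of 0.0526, 0.0606, 0.0609 and 0.0597 times the library median in the same order. A selection on the 0 h libraries alone gave 922 genes, of which 51.3% were under the limit in the 2 h libraries and all were under 0.5.

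**Figure D4:**
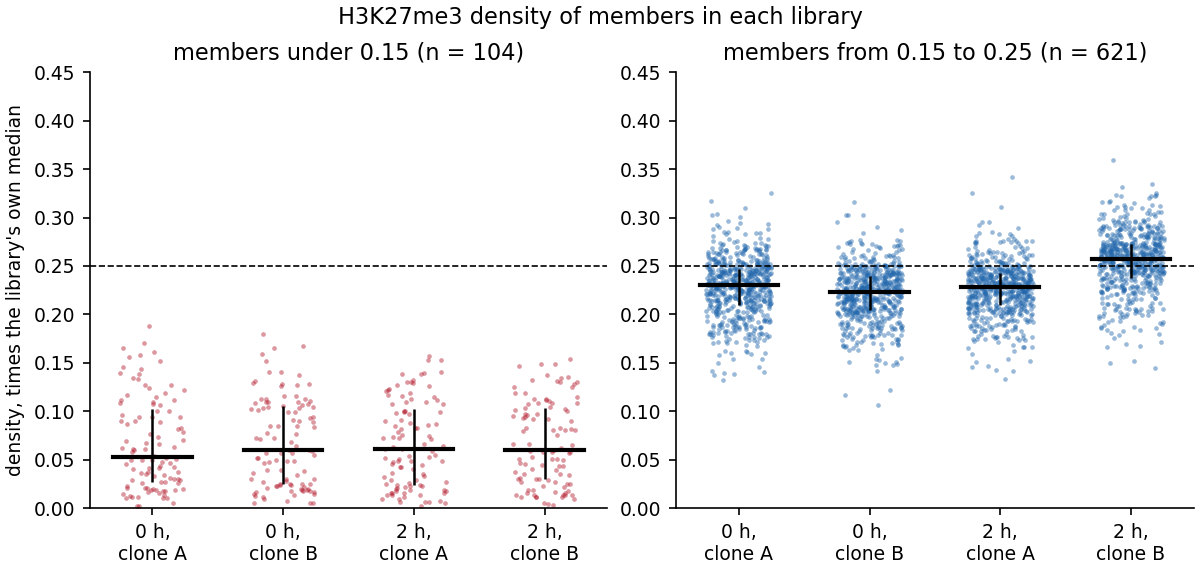
Density of each selected gene in each library, in units of that library's own median; bars and vertical lines give the median and quartiles, and the dashed line is 0.25. For the 621 genes clone B at 2 h lies higher (median 0.258) than the other libraries (0.223 to 0.23), and the 104 tail genes show no such step.

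No selected gene changed detectably after 2 h of 4OHT. Of the 712 that passed the filter on low counts (13 of the tail did not), edgeR's quasi-likelihood test with Benjamini-Hochberg adjustment over all 50037 intervals called 0 higher and 0 lower at an adjusted p under 0.05. Over all intervals tested 0.0% were called higher and 0.0% lower, so counts of calls cannot set the selected genes apart from the rest. At an unadjusted p under 0.05 there were 9 of the 712 (1.26%), 8 of them higher, against 188 of all 50037 (0.376%). At like counts the shares were closer. With a mean count of 50 to 200 they were 5 of 421 selected genes (1.19%) and 19 of 2001 unselected rankable genes (0.95%). All these shares are well under the 0.05 that such a threshold gives when nothing changes, so this fit was conservative. It left out the pairing of libraries by clone, and with clone as a block the share over all intervals was 4.15%. DESeq2 also called 0, with 0 at an unadjusted p under 0.05. The median log2 change of the 712 was 0.08, against 0.01 over all 13783 rankable genes tested, and 68.5% of the values were positive. Taken within a clone, the median stood at −0.02 for A and at 0.17 for B, so the positive median came with the clone B libraries, and without clone B at 2 h it was −0.03. The fitted 95% interval lay within 1.5-fold either way for 358 genes and within 2-fold for 656.

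The genes of smallest unadjusted p in each direction, among those that moved alike in both clones, show the size of what was seen. They are given evenly by direction, although 8 of the 9 genes with an unadjusted p under 0.05 in edgeR were higher. Gm15133, a lncRNA gene, went from counts of 42 (clone A) and 46 (clone B) to 24 and 32, with a fitted log2 change of −0.88 (SE 0.26). Nutf2, which carries the GTPase Ran into the nucleus, went from 81 and 87 to 135 and 159, with a fitted log2 change of 0.58 (SE 0.18). Both values at 2 h lay outside those at 0 h for each gene. Rfxank, a subunit of the RFX factor of MHC class II promoters, held 31 and 38 against 61 and 70 (0.70, SE 0.23), and Pwp2, a ribosomal RNA processing factor, 61 and 63 against 102 and 103 (0.49, SE 0.18). Ptp4a1, a phosphatase, and Gm6346, a gene of the Pramel run, gave −0.53 (SE 0.24) and −0.90 (SE 0.43). Their unadjusted p in edgeR was 0.0637 and 0.0738, farther from a call than some higher genes not listed here. The adjusted p was 1.0 in edgeR for each of these 6, so none was distinguishable from no change. With clone as a replicate block, 39 of 712 had an unadjusted p under 0.05 in edgeR, 36 of them higher, and 0 were called. Over all intervals 2078 of 50037 (4.15%) had such a p.

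Between the clones 13 of the 712 differed. In edgeR's test with times pooled, 2 were higher in clone A and 11 lower, at an adjusted p under 0.05. Over all intervals tested 17.3% were higher in A and 10.3% lower, 27.5% in either direction, and the 13 are 1.83% of the 712. The selected genes have few counts, and of 2001 unselected rankable genes with a mean count of 50 to 200, 9.7% were called, against 6 of the 421 selected genes in that range (1.43%). The median log2 difference, A minus B, was −0.05. DESeq2's test called 0 of the 725 (6 at an unadjusted p under 0.05), while it called 8694 of all 50398 intervals. It gave no adjusted p for Tbc1d13, Pex19 and Vmn2r33 among the 13, so these could not be called there. The others of the 13 had one and were not called. How many of the 725 lacked an adjusted p was not counted, so the 0 does not speak for all of them.

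The genes called between clones were of varied function. Their sizes depended on single libraries. Without clone B at 2 h the log2 difference of Helq went from −0.34 to −0.14 and that of Anapc1 from −0.23 to −0.13. Without clone A at 2 h they also shrank, to −0.26 and −0.14. Both grew without clone A at 0 h (−0.42 and −0.32) and without clone B at 0 h (−0.54 and −0.35). Each such fit leaves 1 library in a clone. Tbc1d13, a regulator of Rab GTPases, held 82 counts in clone A and 131 in clone B at 0 h, and 113 and 156 at 2 h, a log2 difference of −0.51 (SE 0.16, edgeR adjusted p = 0.00988). Both clone A counts lay below both clone B counts. Mup-ps12, a gene of the urinary protein family that RefSeq lists as protein coding, at 0.161 times the median, held 324 and 442 at 0 h and 409 and 497 at 2 h (−0.31, SE 0.10). Helq, a DNA repair helicase, Kdsr, of sphingolipid synthesis, Hspg2, Nectin2, an adhesion protein, Pex19, of peroxisome assembly, Slc26a6, an anion exchanger, Wdr75, of ribosome assembly, and Anapc1, a subunit of the anaphase-promoting complex, differed by −0.22 to −0.56, and those after Hspg2 were named after their values were seen. Vmn2r33 was the only call in the tail, its counts being 18 against 41 at 0 h and 31 against 42 at 2 h (−0.71, SE 0.28). Gm21811 was higher in A, its counts being 188 against 149 at 0 h and 207 against 162 at 2 h (0.40, SE 0.14). Shcbp1, a midbody protein, was the other, its counts being 283 against 243 at 0 h and 327 against 278 at 2 h (0.28, SE 0.11). Its edgeR adjusted p of 0.05 sat at the threshold, and it was lost in 10 of 11 other settings.

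**Figure D5:**
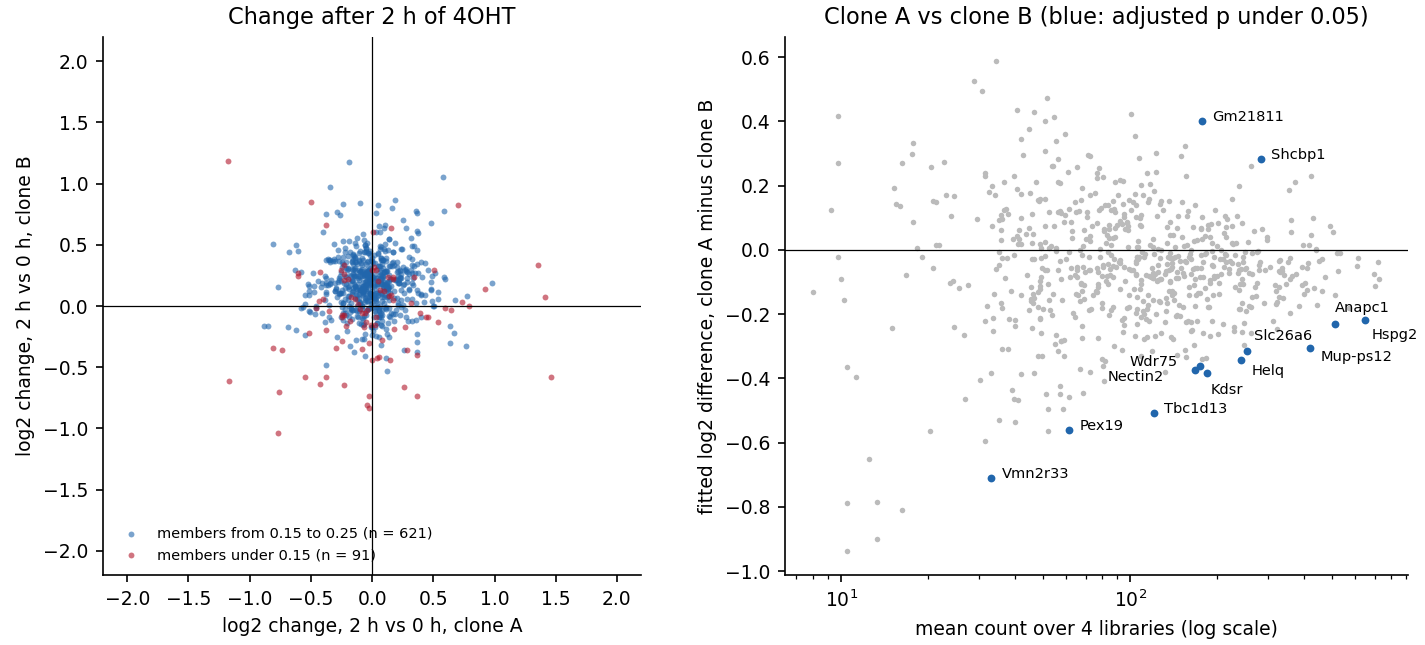
Left, log2 change at 2 h against 0 h in clone A (x) and clone B (y) for the 712 tested genes, blue from 0.15 to 0.25 and red below; right, fitted log2 difference of clone A minus clone B against the mean count (log scale), with the 13 called genes in blue and named. On the left the blue points centre on −0.02 in A and 0.18 in B, and on the right 11 of the 13 called genes lie below 0.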

How the data were processed

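H3K27me3 ChIP-seq was measured in 4 libraries of 8 samples. The authors deposited a table of raw read counts per genomic interval, per the file headers. Bowtie2, bedtools and mm10 are named in the submitters' processing notes, with versions, read filters and the handling of reads that match several places not given in the sources used here. Of the per-library columns, 12 were not used, and the inputs were not analysed here. Intervals were named by the RefSeq gene (GRCm38.p6) with an overlap of at least 0.5 of their union and a margin of 0.2 over the next gene, which named 43793 of 50398. The members and gene lists were chosen with earlier results of these data known, and the limit of 0.15 was set after seeing them.

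Counts over all intervals were tested with edgeR 4.0.16 (quasi-likelihood, TMM scaling, filterByExpr, with limma 3.58.1) in R 4.3.3 (package data.table, version 1.17.8), with Benjamini-Hochberg adjustment at 0.05, and DESeq2 1.42.0 as an alternative. Python 3.11.15, pandas 2.3.3, NumPy 2.4.6 and SciPy 1.17.1 did the rest, and the procedure was tested on simulated data. The time fit had no block. The numbers pair the libraries because the same clones were used at both times. As a check, deviations from the time means of same-clone libraries had a correlation of 0.514 over 50037 tested intervals and of 0.0118 over the 712 tested members. Promoters were matched when they lay within 500 bp of the interval's start, neighbours were counted within 100 kb, and copied runs were 36 bases long. Genes were named by rule: the 5 protein-coding members of lowest density and the 5 of highest mean count, the 3 on either side of the limit, up to 3 of highest count per list, the 3 per direction of smallest p at 2 h that moved alike in both clones, up to 5 per direction called between clones, and any gene of the pluripotency, Polycomb and RAS to ERK lists. Runs, families and other list members were named after their values were seen. Other filters, scalings, limits and left-out libraries were tried.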

Additional observations from a re-analysis of the deposited data

Results flagged for a closer look

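The change at 2 h differed in sign between the clones. For the selected genes clone A had a median log2 change of −0.0207 and clone B one of 0.167, and for the 621 genes from 0.15 to 0.25 these were −0.0194 and 0.179. Put the other way, the median log2 difference of clone A minus clone B was 0.0488 at 0 h and −0.14 at 2 h, and 0.0514 and −0.146 for the 621. The next band, which was not selected, had the same opposite signs, at −0.046 in A and 0.126 in B, and differences between clones of 0.0441 at 0 h and −0.133 at 2 h. Each value rests on 1 pair of libraries, and the difference was not tested.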

How the results depend on the processing

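No gene called between clones changed sign under an alternative, whereas the medians over the selected genes, which carry no test, passed 0 when 1 library was left out. A limit of 0.2 gave 152 genes and one of 0.3 gave 1998, against 725, and leaving out 1 library gave 659 to 926, the highest without clone B at 2 h. The 0 calls at 2 h stayed 0 in all 13 alternatives, including clone as a replicate block (0 called, median log2 change 0.08). The median change ran from −0.03 to 0.14 when 1 library was left out.

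Between clones, the 2 genes higher in A became 7 at an adjusted p under 0.1, 0 with the limit at 0.2, 1 with DESeq2 size factors, with column totals, with no filter on low counts, with factors from the less marked intervals and with time as a covariate, and 0 in DESeq2's test. The 11 lower in A became 25 at an adjusted p under 0.1, 3 with the limit at 0.2 and 0 in DESeq2's test. DESeq2 gave no adjusted p for Tbc1d13, Pex19 and Vmn2r33 among these 11, so it could not call them. Leaving out 1 library gave 0 to 5 higher and 4 to 23 lower: 0 and 8 without clone A at 0 h, 1 and 23 without clone B at 0 h, 3 and 4 without clone A at 2 h, and 5 and 4 without clone B at 2 h. The median difference ran from −0.14 to 0.01. The cause was not tested. In alternatives added after seeing the data, the median CpG count was 3 with the limit at 0.2 and the ETS motif share 15.8%, since that limit leaves mostly the tail, and the copied share of the tail was 67.9% with its limit at 0.2 and 89.1% at 0.1. A median of 102 counts per selected gene limits single values.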
